A study of Mus musculus with 22 samples.

Results

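Zic1, Zic2, Zic4 and Zic5 of the ZIC family and Tfap2a, Tfap2b, Tfap2c and Tfap2e of the AP-2 family, 8 of the 48440 genes counted, were followed across mouse tumours with and without the SS18-SSX fusion oncogene. The genes were taken by name from the counts table, and they were chosen by their levels in these libraries, which in earlier results differed between tumours with the fusion and tumours without it. Their differences between combined and Snf5-null tumours and between SS18-SSX and Snf5-null tumours are therefore given as a description, with no test. Tests are given for the differences that this choice did not use, which are those between the 2 genotypes that carry the fusion and between Cre labels within a genotype. The AP-2 gene Tfap2d is given beside them.

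RNA was sequenced from 22 fresh-frozen tumours of mice whose strain field reads C57BL, with a substrain number that differs between samples. Combined tumours carried the fusion and had lost Smarcb1 (the gene also called Snf5), with 4 libraries labelled Myf5Cre (N1, N2, N3 and N4) and 4 labelled TATCre (N49, 78774, 78777 and 78780), and their genotype is written as SS18-SSX+/- and Snf5-/-. SS18-SSX tumours, labelled SS18-SSX+/-, numbered 3 with Myf5Cre (N381, N428 and N460) and 3 with no Cre stated (A, B and N2). Snf5-null tumours, labelled SNF5-/-, numbered 3 with Myf5Cre (N30, N31 and N33) and 5 with TATCre (N1, N49, N43L, N43R and N51). The fusion, which defines human synovial sarcoma, joins SS18 to an SSX protein. SS18 and the product of Smarcb1 both belong to the SWI/SNF complex (also called BAF), which remodels chromatin. Myf5Cre is Cre recombinase expressed from the Myf5 gene of myogenic progenitors, and TATCre is a Cre protein that enters cells. Which exons of Smarcb1 were removed, where the fusion allele lies and whether each library came from a separate animal are not stated in the labels, so p-values measure the spread between these libraries, which may in part be technical.

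ZIC proteins are zinc finger transcription factors related to the GLI factors that act at the end of the Hedgehog pathway. They are known from the dorsal neural tube, the neural crest, the cerebellum and the somites, and the genes described here lie in head-to-head pairs, Zic1 with Zic4 and Zic2 with Zic5. AP-2 proteins bind DNA as dimers, most often at a palindrome of GCC and GGC, and are known from the neural crest, the surface ectoderm, the trophoblast, the kidney and the breast epithelium. Neither family is a marker of mature skeletal muscle.

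Total counts ran from 8642648 to 25177722 per library. Smarcb1 averaged 2.53 ± 0.946 CPM in combined tumours (SD, n = 8), 79.2 ± 23.1 CPM in SS18-SSX tumours (n = 6) and 15.9 ± 5.17 CPM in Snf5-null tumours (n = 8), in the direction of the labels. The 2 genotypes labelled as Smarcb1 loss did not overlap, at 0.909 to 3.66 CPM in combined and 10.6 to 26.9 CPM in Snf5-null tumours. The cause of this difference was not tested. Levels are given as CPM, the counts of a gene relative to the library size after TMM scaling. The leucocyte gene Ptprc averaged 24.4 ± 21.4 CPM in combined, 26.6 ± 24.2 CPM in SS18-SSX and 272 ± 106 CPM in Snf5-null tumours, so the Snf5-null libraries held a larger share of leucocyte RNA. In bulk tumour RNA, fewer cells of a type and less RNA per cell cannot be told apart. The sample descriptions carry a number series that is the same for all combined and Snf5-null libraries and differs in each SS18-SSX group, so what this series and what the genotype of SS18-SSX tumours contribute cannot be told apart. A tag is shared by N43L and N43R, and the results were repeated with their counts summed. The tags N1, N2 and N49 each occur in 2 genotypes, and the labels do not say whether these libraries are related.

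The stretch around the start of transcription is shown for the Zic1 and Zic4 pair, for Zic5 of the other pair, and for Tfap2b and Tfap2e, which were highest in different genotypes (SS18-SSX and Snf5-null). Each line is a RefSeq window of 300 bases on GRCm38.p6, from 250 bases before the start site to 50 after it, read 5′ to 3′ on the strand of the gene, and capitals mark CG dinucleotides. Windows were found for 6 of the 8 genes. The Zic1 window lies at chr9:91365719-91366018 (minus strand), the Zic4 window at chr9:91368722-91369021 (plus strand) and the Zic5 window at chr14:122465609-122465908 (minus strand). The Tfap2b window lies at chr1:19211804-19212103 (plus strand) and the Tfap2e window at chr4:126736220-126736519 (minus strand). The RefSeq start sites lie 42, 19 and 29 bases from the GENCODE ends given below for Zic1, Zic5 and Tfap2e. For Zic4 and Tfap2b the sources place the start 6559 and 3140 bases apart, so these 2 windows do not lie at the gene ends given below.
Zic1: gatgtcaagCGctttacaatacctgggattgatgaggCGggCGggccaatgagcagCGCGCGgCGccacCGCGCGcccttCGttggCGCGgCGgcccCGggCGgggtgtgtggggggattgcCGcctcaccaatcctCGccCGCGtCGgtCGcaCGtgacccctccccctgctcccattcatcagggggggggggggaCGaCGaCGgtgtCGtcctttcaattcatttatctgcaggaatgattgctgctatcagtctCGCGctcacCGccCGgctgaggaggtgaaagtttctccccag
Zic4: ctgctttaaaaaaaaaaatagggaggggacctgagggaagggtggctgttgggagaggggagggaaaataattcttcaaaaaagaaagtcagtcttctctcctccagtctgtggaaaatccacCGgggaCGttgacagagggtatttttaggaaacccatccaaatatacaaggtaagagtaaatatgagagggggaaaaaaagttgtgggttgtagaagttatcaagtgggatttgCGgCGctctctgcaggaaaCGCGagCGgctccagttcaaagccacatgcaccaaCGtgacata
Zic5: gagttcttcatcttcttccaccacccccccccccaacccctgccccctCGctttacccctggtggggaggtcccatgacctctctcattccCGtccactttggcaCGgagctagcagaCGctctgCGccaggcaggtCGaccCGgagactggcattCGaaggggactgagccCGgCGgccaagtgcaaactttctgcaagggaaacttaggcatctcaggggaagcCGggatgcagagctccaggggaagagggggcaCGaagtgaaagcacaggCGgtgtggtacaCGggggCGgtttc
Tfap2b: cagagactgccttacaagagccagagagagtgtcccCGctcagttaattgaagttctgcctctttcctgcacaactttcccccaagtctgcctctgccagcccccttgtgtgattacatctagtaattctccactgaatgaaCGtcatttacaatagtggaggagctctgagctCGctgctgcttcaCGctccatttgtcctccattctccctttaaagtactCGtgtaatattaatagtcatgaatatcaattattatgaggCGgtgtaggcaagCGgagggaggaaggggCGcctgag
Tfap2e: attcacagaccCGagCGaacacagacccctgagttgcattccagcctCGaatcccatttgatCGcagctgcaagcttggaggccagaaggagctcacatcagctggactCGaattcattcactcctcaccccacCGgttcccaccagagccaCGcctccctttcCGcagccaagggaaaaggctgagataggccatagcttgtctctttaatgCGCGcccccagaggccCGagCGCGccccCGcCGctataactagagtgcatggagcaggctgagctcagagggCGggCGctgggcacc

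The Zic1 window held 31 CG dinucleotides and was 65.3% G or C, the Zic5 window 15 at 62.7%, and the Tfap2e window 17 at 60.3%. The windows of Zic4 (8 CG dinucleotides, 46% G or C) and Tfap2b (8, 48.3%) lay near the median of all 32851 windows, which was 7 CG dinucleotides and 52.7% G or C. Tfap2a has a window for each of 2 RefSeq start sites, 4581 and 3456 bases from its GENCODE end, with 15 and 11 CG dinucleotides. The AP-2 motif GCCNNNGGC, searched on both strands, was found in 16.6% of all windows and in 1 of these, that of Zic1, where it begins 157 bases before the start site. The letters CAGCAGG, which ZIC proteins bind, were found on either strand in 10.5% of all windows and in 0 of these windows.

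**Figure D1:**
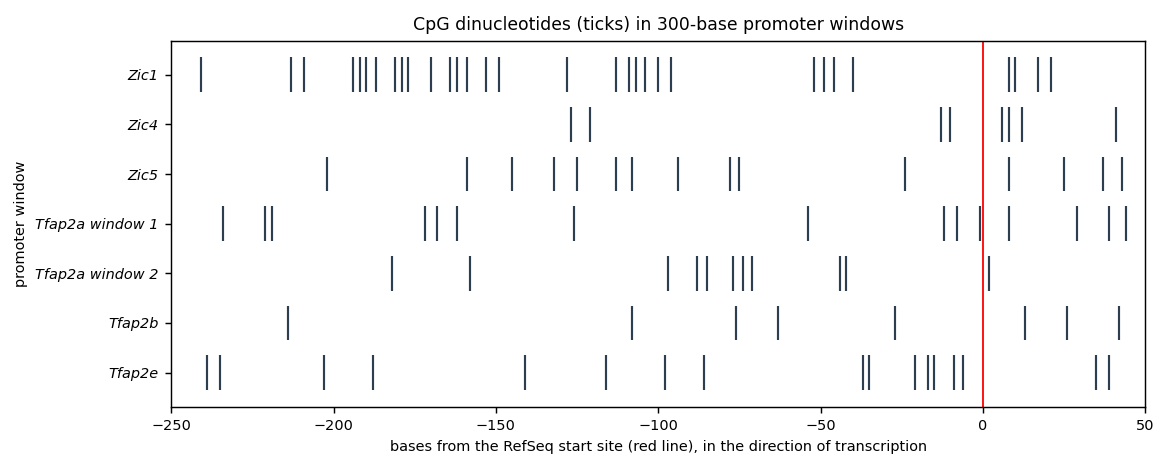
CG dinucleotides (vertical ticks) along the 300-base promoter windows of the members with a RefSeq window, 1 row per window, by distance in bases from the start site (red line) in the direction of transcription. The Zic1 row holds 31 ticks, the most, and the Zic4 and Tfap2b rows hold 8 each.

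Zic2 and Zic5 stood at intermediate levels in most combined tumours, were highest in SS18-SSX tumours and were near 0 in most Snf5-null tumours. Zic2 (ENSMUSG00000061524, GRCm38 chromosome 14, 122475435 to 122479852, plus strand) is required for the midline of the forebrain, and its human counterpart is mutated in holoprosencephaly. In combined Myf5Cre libraries N1, N2, N3 and N4, Zic2 stood at 47.0, 46.0, 33.6 and 40.2 CPM, and in combined TATCre libraries N49, 78774, 78777 and 78780 at 43.6, 35.8, 71.3 and 4.21 CPM. SS18-SSX Myf5Cre libraries N381, N428 and N460 had 91.2, 492.7 and 333 CPM, and libraries A, B and N2 with no Cre stated had 200, 283 and 172 CPM. Snf5-null Myf5Cre libraries N30, N31 and N33 had 0.226, 0.199 and 0.125 CPM, and Snf5-null TATCre libraries N1, N49, N43L, N43R and N51 had 1.05, 7.60, 0.0551, 0 and 0.0488 CPM. All combined libraries but 78780 lay above every Snf5-null library, and 78780 lay below Snf5-null N49. All SS18-SSX libraries lay above all combined and all Snf5-null libraries.

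Zic2 averaged 40.2 ± 18.6 CPM in combined (SD, n = 8), 262 ± 141 CPM in SS18-SSX (n = 6) and 1.16 ± 2.62 CPM in Snf5-null tumours (n = 8). Its log2 fold change was 6.13 ± 1.0 (SE) for combined minus Snf5-null and 8.81 ± 1.13 for SS18-SSX minus Snf5-null tumours. Both differences are set against the same Snf5-null libraries. By group mean the order was SS18-SSX Myf5Cre (306 ± 202 CPM), SS18-SSX with no Cre stated (218 ± 57.4), combined Myf5Cre (41.7 ± 6.20), combined TATCre (38.7 ± 27.6), Snf5-null TATCre (1.75 ± 3.30) and Snf5-null Myf5Cre (0.183 ± 0.0523). The 2 groups of each genotype stood next to each other in this order and did not differ beyond their spread.

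Zic5 (ENSMUSG00000041703, chromosome 14, 122456795 to 122465677, minus strand), which promotes neural crest formation, starts 9758 bases from Zic2 on the opposite strand. It ran from 1.43 to 22.6 CPM in combined tumours with a median of 10.8, from 24.3 to 131 CPM in SS18-SSX tumours with a median of 48.1, and from 0 to 2.98 CPM in Snf5-null tumours with a median of 0.0312. The lowest combined library was again 78780 and the highest Snf5-null library again N49, and 4 of 8 Snf5-null libraries held no count. The log2 fold change was 5.74 ± 1.0 (SE) for combined minus Snf5-null and 8.10 ± 1.11 for SS18-SSX minus Snf5-null tumours. In the 15 libraries with at least 50 Zic2 counts, 0.149 to 0.392 Zic5 counts were found per Zic2 count (median 0.265). The ratio thus varied 2.63-fold while Zic2 itself varied 117-fold over the same libraries.

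Zic1 and Zic4 did not sort by genotype. Zic1 (ENSMUSG00000032368, chromosome 9, 91358058 to 91365810, minus strand) acts in the cerebellum and in the dorsal neural tube and somites. It stood at 51.4, 139, 2.10 and 0.424 CPM in combined Myf5Cre N1, N2, N3 and N4 and at 0.366, 0.432, 3.8 and 183 CPM in combined TATCre N49, 78774, 78777 and 78780. In SS18-SSX Myf5Cre N381, N428 and N460 it stood at 42.8, 25.1 and 0.0367 CPM, and in A, B and N2 with no Cre stated at 1.31, 61.3 and 59.4 CPM. Snf5-null Myf5Cre N30, N31 and N33 had 12.2, 5.62 and 3.19 CPM, and Snf5-null TATCre N1, N49, N43L, N43R and N51 had 24.7, 0.127, 0, 0.0546 and 0 CPM. Each genotype thus held libraries near 0 beside libraries at 12.2 CPM or more, and the 3 genotypes overlapped. Only 3 of 8 combined libraries (78780, N2 and N1) and 4 of 6 SS18-SSX libraries lay above the highest Snf5-null library, N1 of the TATCre group.

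Zic1 averaged 47.6 ± 73.2 CPM in combined, 31.7 ± 27.4 CPM in SS18-SSX and 5.74 ± 8.76 CPM in Snf5-null tumours. The SD exceeded the mean in combined and in Snf5-null tumours, and the log2 fold changes against Snf5-null tumours (3.01 ± 1.62 SE for combined, 2.36 ± 1.63 for SS18-SSX) were less than 2 SE from 0. Both rested on single libraries. Without Snf5-null TATCre N1 they were 6.42 for combined and 5.73 for SS18-SSX, and without combined TATCre 78780 the first was 0.59. The group means ran from combined Myf5Cre (48.3 ± 65.2 CPM), combined TATCre (46.9 ± 90.8) and SS18-SSX with no Cre stated (40.7 ± 34.1) to SS18-SSX Myf5Cre (22.6 ± 21.5), Snf5-null Myf5Cre (7.00 ± 4.66) and Snf5-null TATCre (4.98 ± 11.0). No neighbours in this order differed beyond their spread.

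Zic4 (ENSMUSG00000036972, chromosome 9, 91362413 to 91389348, plus strand), deleted together with ZIC1 in some human Dandy-Walker malformations, lies on the opposite strand to Zic1. In GENCODE its first base lies 3397 bases inside the span of Zic1, while the RefSeq start sites of the pair are 3204 bases apart and point away from each other. Zic4 ran from 0 to 54.8 CPM in combined tumours (median 0.996), from 0.0735 to 14.7 CPM in SS18-SSX tumours (median 7.52) and from 0 to 3.95 CPM in Snf5-null tumours (median 0.157). It was highest where Zic1 was high, in combined N2, 78780 and N1, in SS18-SSX N2, B and N381 and in Snf5-null N1. The 12 libraries with at least 50 Zic1 counts held 0.0784 to 0.477 Zic4 counts per Zic1 count (median 0.195). The annotated exons of the pair share 60 bases on opposite strands, 1.05% of the exon bases of Zic1. Exons of the antisense gene Gm37477 overlap those of Zic4 over 468 bases, 4.53% of the exon bases of Zic4. The library kit keeps the strand, but no source used here says whether the counting used it, so reads in these stretches cannot be assigned.

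Over the 22 libraries the log2 CPM of Zic1 and Zic4 correlated at Pearson r = 0.954 and those of Zic2 and Zic5 at r = 0.995. In each case the neighbour was the gene most like the other among the 18928 other genes kept. Between the pairs r was lower, at 0.317 for Zic1 and Zic2 and 0.336 for Zic4 and Zic5. These values describe libraries that differ in genotype and leucocyte content, and no p is given for them. Combined library 78780 shows how the pairs can part, since it held the highest Zic1 level of all libraries and the lowest Zic2 level among tumours with the fusion.

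**Figure D2:**
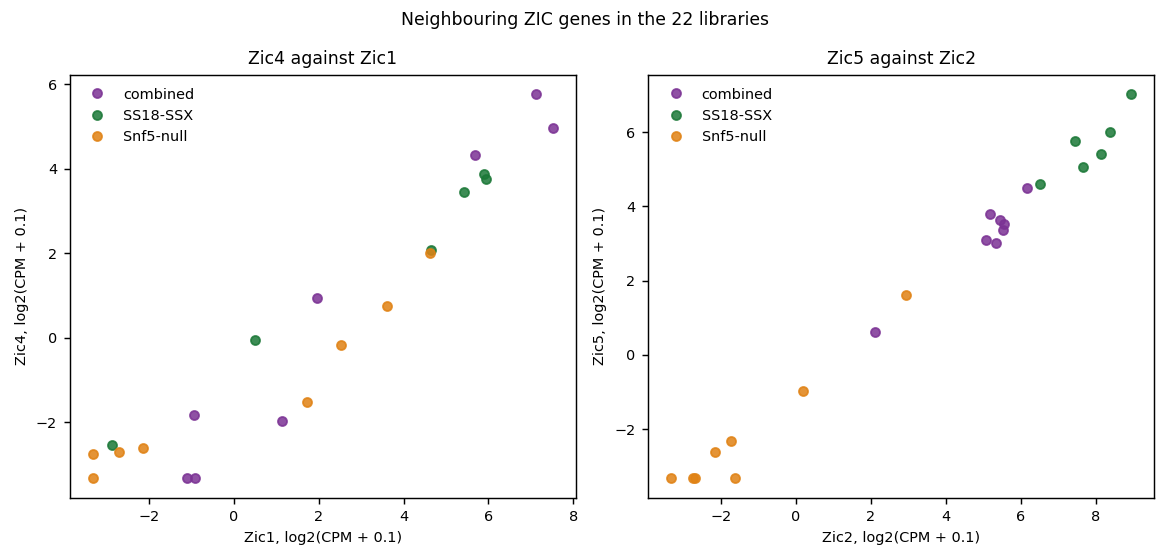
Levels of Zic4 against Zic1 (left) and of Zic5 against Zic2 (right) in the 22 libraries, as log2(CPM + 0.1), 1 point per library coloured by genotype. In the left panel all genotypes spread along the line, and in the right panel they stand in order, SS18-SSX highest, combined next and Snf5-null lowest, but for combined 78780, below Snf5-null N49.

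Among the 4 AP-2 genes, Tfap2c had the highest mean level per kb of exon both in combined (26.3 ± 21.2 CPM per kb) and in SS18-SSX tumours (20.5 ± 6.78). Tfap2c (ENSMUSG00000028640, chromosome 2, 172549593 to 172558622, plus strand) is needed in the trophoblast and in germ cell precursors. Combined Myf5Cre N1, N2, N3 and N4 had 90.5, 93.1, 59.2 and 78.4 CPM, and combined TATCre N49, 78774, 78777 and 78780 had 6.59, 96.8, 276 and 74.0 CPM. SS18-SSX Myf5Cre N381, N428 and N460 had 91.1, 45.0 and 90.7 CPM, and A, B and N2 with no Cre stated had 107, 68.3 and 49.7 CPM. Snf5-null Myf5Cre N30, N31 and N33 had 0.282, 0.249 and 0.375 CPM, and Snf5-null TATCre N1, N49, N43L, N43R and N51 had 7.27, 13.5, 0, 0.109 and 0.439 CPM. Combined TATCre N49 was the exception among tumours with the fusion, below Snf5-null N1 and N49, while the other 7 combined libraries and all SS18-SSX libraries lay above every Snf5-null library.

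The means of Tfap2c were 96.8 ± 78.04 CPM in combined, 75.3 ± 24.9 CPM in SS18-SSX and 2.78 ± 4.98 CPM in Snf5-null tumours. Its log2 fold change was 6.39 ± 1.05 (SE) for combined minus Snf5-null and 6.04 ± 1.05 for SS18-SSX minus Snf5-null tumours. Ordered by mean, combined TATCre (113 ± 115 CPM), combined Myf5Cre (80.3 ± 15.5), SS18-SSX Myf5Cre (75.6 ± 26.5) and SS18-SSX with no Cre stated (75.0 ± 29.2) did not differ beyond their spread, and Snf5-null TATCre (4.26 ± 6.00) and Snf5-null Myf5Cre (0.302 ± 0.0654) followed. Snf5-null TATCre N49, with the highest Tfap2c level of its genotype, also had the highest summed level of 10 keratinocyte markers, 358 CPM, against 4.58 to 27.1 CPM in the other Snf5-null libraries. Of that sum, 330 CPM (92%) came from Dsg3, a desmosomal cadherin, and the other 9 markers summed to 28.6 CPM. Their part in its Tfap2c was not tested.

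Tfap2b was high in SS18-SSX tumours and low in most combined tumours. Tfap2b (ENSMUSG00000025927, chromosome 1, 19208914 to 19238576, plus strand) acts in the kidney, the neural crest and the closing of the ductus arteriosus, and its human counterpart is mutated in Char syndrome. Combined Myf5Cre N1, N2, N3 and N4 had 4.65, 2.83, 0.0776 and 0 CPM, and combined TATCre N49, 78774, 78777 and 78780 had 1.17, 8.88, 14.7 and 0.0751 CPM. SS18-SSX Myf5Cre N381, N428 and N460 had 50.0, 109 and 5.47 CPM, and A, B and N2 with no Cre stated had 53.5, 57.2 and 65.4 CPM. The 3 Snf5-null Myf5Cre libraries held no count, and the 5 Snf5-null TATCre libraries reached at most 0.164 CPM. Of the combined libraries 5 of 8 lay above all Snf5-null libraries, and the other 3 held 0 or 1 count.

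Tfap2b averaged 4.05 ± 5.28 CPM in combined, 56.8 ± 33.2 CPM in SS18-SSX and 0.0407 ± 0.0565 CPM in Snf5-null tumours. Over the limit set by 3 counts in the Snf5-null Myf5Cre group, it was at least 33.9-fold higher in combined Myf5Cre libraries (1.89 ± 2.26 CPM) and at least 984-fold higher in SS18-SSX Myf5Cre libraries (54.9 ± 52.0 CPM). Single libraries carried these bounds, which were 17.4-fold without combined N1 and 497-fold without SS18-SSX N428. Of the 4 AP-2 genes described here it had the highest fitted log2 fold change of SS18-SSX minus Snf5-null tumours, 11.27 ± 1.57 (SE), a value that depends on how counts of 0 are handled. Its neighbour Tfap2d (chromosome 1, 19103022 to 19166346, plus strand) held 7 counts in combined Myf5Cre N2, 3 counts in SS18-SSX N2 and none in any other library.

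Tfap2a (ENSMUSG00000021359, chromosome 13, 40715302 to 40738376, minus strand), a factor of the neural crest and the face, was present at low levels in all 22 libraries. It ran from 0.854 to 10.2 CPM in combined tumours (median 2.84), from 4.02 to 14.7 CPM in SS18-SSX tumours (median 6.51) and from 0.218 to 3.95 CPM in Snf5-null tumours (median 1.26). Only 3 of 8 combined libraries (N1, N2 and 78777) lay above all Snf5-null libraries, while all SS18-SSX libraries did. Its log2 fold change was 1.69 ± 0.58 (SE) for combined minus Snf5-null and 2.42 ± 0.62 for SS18-SSX minus Snf5-null tumours, smaller than those of Tfap2b and Tfap2c. The exons of 3 antisense genes, Gm26688 (380 bases), Gm47061 (265) and Gm47067 (73), overlap those of Tfap2a, and reads there cannot be told apart if the counting did not use the strand.

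Tfap2e (ENSMUSG00000042477, chromosome 4, 126716006 to 126736240, minus strand), known from the olfactory bulb, was the AP-2 gene of a single group. The 3 Snf5-null Myf5Cre libraries N30, N31 and N33 had 5.59, 5.08 and 4.88 CPM (99, 102 and 78 counts). No count was found in any of the 8 combined libraries, the 6 SS18-SSX libraries held 0 to 5 counts, and the 5 Snf5-null TATCre libraries held 1 to 4 counts. The combined libraries were thus at least 216-fold lower than the Snf5-null Myf5Cre libraries (5.18 ± 0.369 CPM, n = 3), taking 3 counts over the 8 libraries as the limit, or 0.024 CPM. Within Myf5Cre alone, combined libraries were at least 112-fold lower. Tfap2e passed the low-count filter through these 3 libraries, so its presence among the genes tested already rests on them.

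Of the 8 genes, Zic2, Zic5, Tfap2a, Tfap2b and Tfap2c lay higher in SS18-SSX than in Snf5-null tumours with no overlap, as did 10.1% of all tested genes. Between combined and Snf5-null tumours, Tfap2e was the gene without overlap, lower in combined tumours, as were 6.36% of all tested genes. For Tfap2e this set 0 counts in combined libraries against 1 to 4 counts in the 5 Snf5-null TATCre libraries. It passed the low-count filter through the 3 Snf5-null Myf5Cre libraries, which held 78 to 102 counts. Both contrasts with Snf5-null tumours are those by which the genes were chosen, and nothing further is read from these numbers of genes. The median log2 fold change over all tested genes was 0.235 for combined minus Snf5-null and 0.061 for SS18-SSX minus Snf5-null tumours. It moved with the scaling and with single libraries, to 0.12 and 0.024 with RLE scaling in place of TMM, and ran from 0.052 to 0.311 and from -0.112 to 0.275 over the alternatives run.

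**Figure D3:**
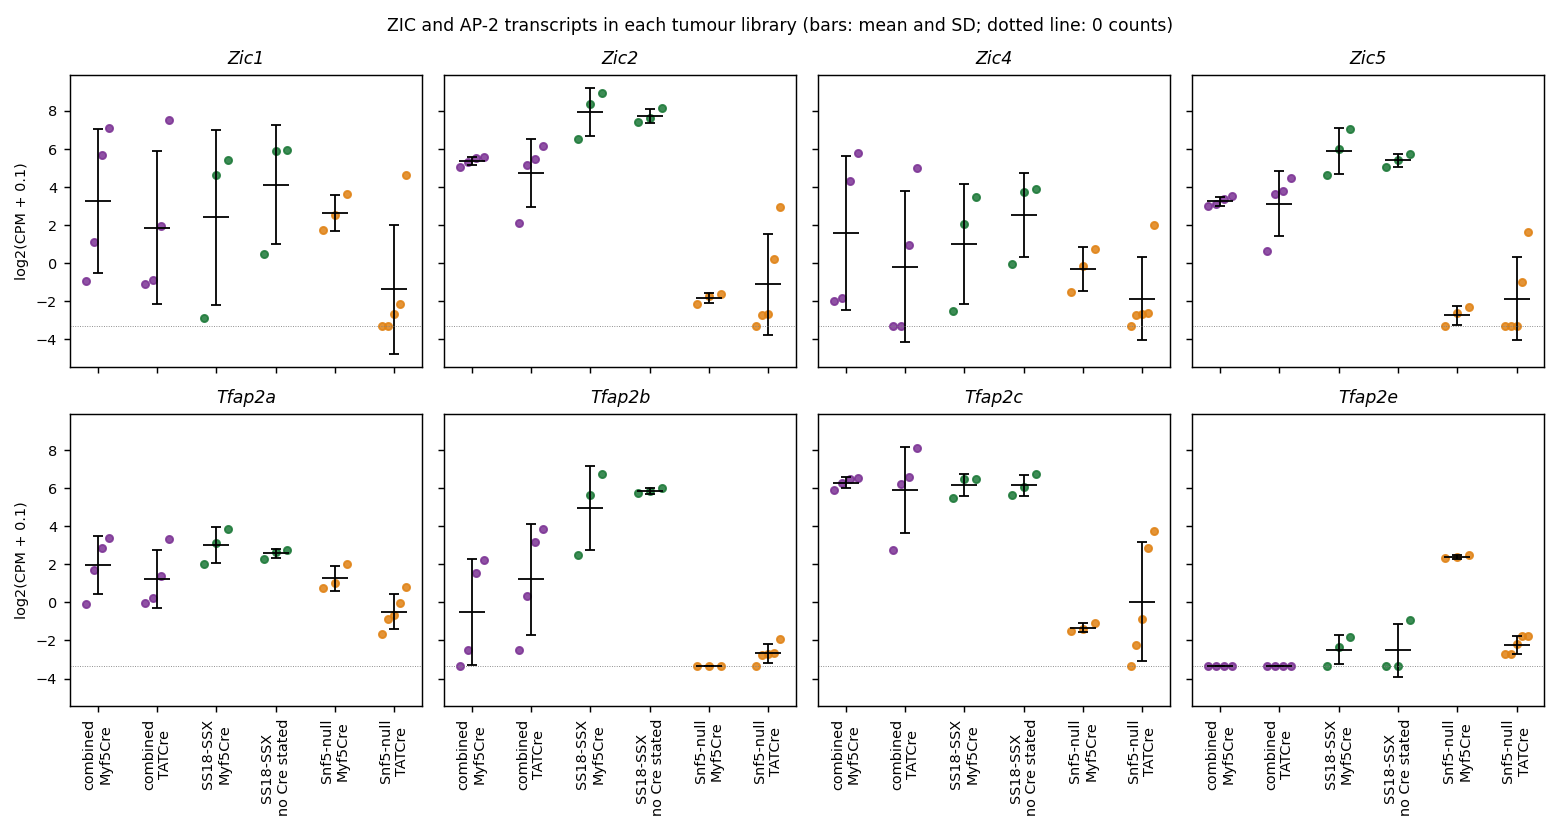
Levels of the 8 genes in each library as log2(CPM + 0.1), by group (combined, SS18-SSX, then Snf5-null), with the mean and SD of each group. Points on the dotted line are libraries with 0 counts, which include all 8 combined libraries for Tfap2e and all 3 Snf5-null Myf5Cre libraries for Tfap2b.

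Dividing each level by exon length, to compare genes with each other, showed which of the 4 ZIC and which of the 4 AP-2 genes led. In combined tumours Zic2 led the ZIC genes in 6 of 8 libraries and Zic1 in the other 2 (78780 and N2), with a median Zic2 share of 81.6% of the summed level per kb of the 4 genes. SS18-SSX tumours had Zic2 in the lead in 6 of 6 libraries, with a median share of 83.5%. The 5 Snf5-null libraries with at least 50 counts of these genes had far lower levels, and there Zic1 led in 4, with a median share of 85.6%, and Zic2 in 1, TATCre N49.

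The AP-2 genes were led by Tfap2c in 8 of 8 combined libraries, with 81.4% to 98.9% of the summed AP-2 level per kb. In SS18-SSX tumours Tfap2c led in 5 of 6 libraries and Tfap2b in 1 (N428), and the Tfap2b share ran from 3.2% to 53.1%, against 0% to 8.4% in combined tumours. Of the 5 Snf5-null libraries with at least 50 AP-2 counts, the 3 of Myf5Cre were led by Tfap2e and the 2 of TATCre (N1 and N49) by Tfap2c. Tfap2a led in none of these 19 libraries. It did lead in Snf5-null TATCre N43L (71.9%), N43R (35.3%) and N51 (60.5%), which were left out for having fewer than 50 AP-2 counts. These held 10, 10 and 48 AP-2 counts, so their shares rest on few counts.

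**Figure D4:**
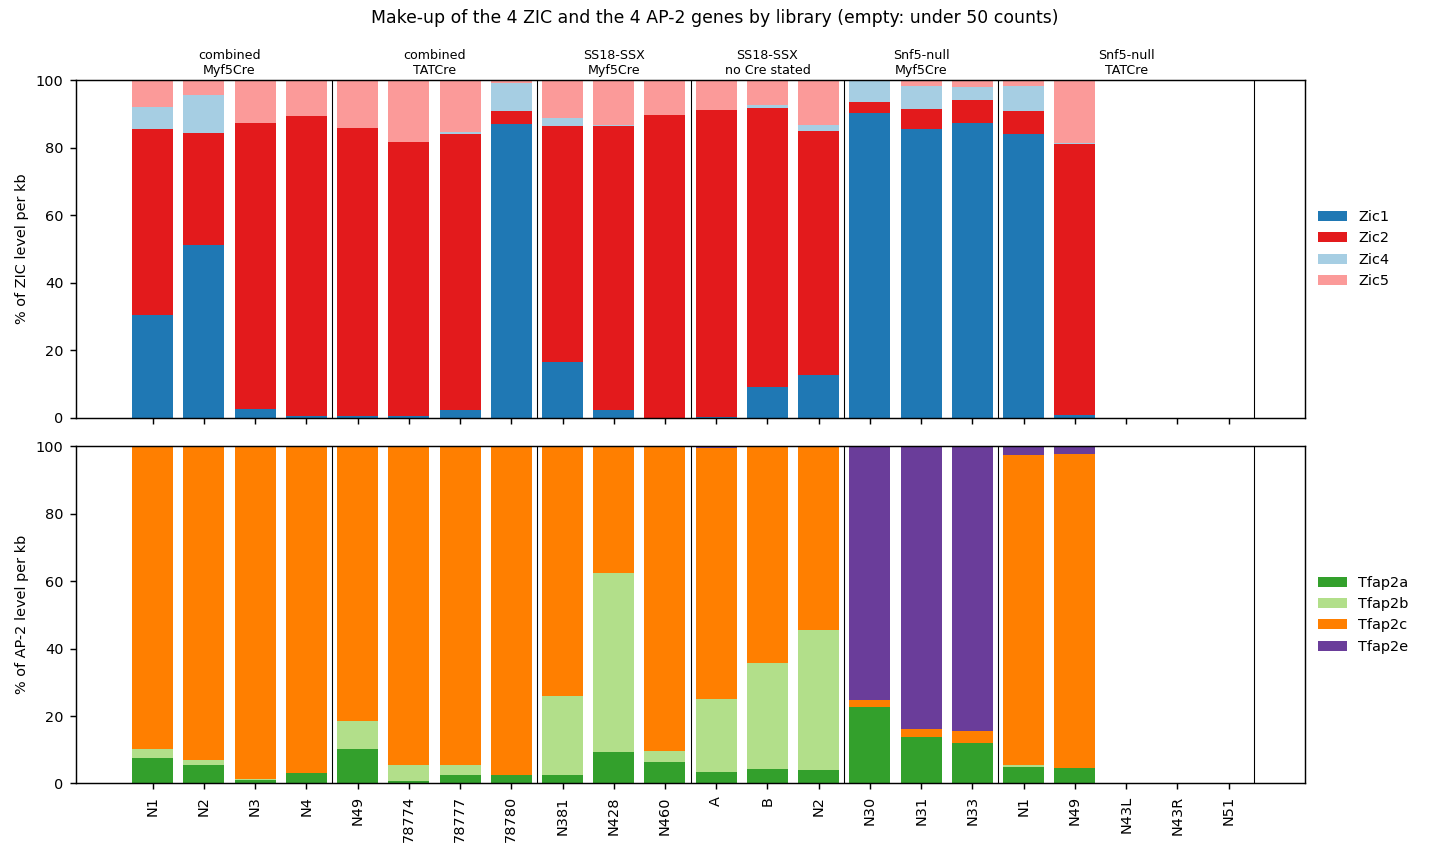
Share of each gene in the summed level per kb of exon of Zic1, Zic2, Zic4 and Zic5 (top) and of Tfap2a, Tfap2b, Tfap2c and Tfap2e (bottom), 1 bar per library, for libraries with at least 50 counts of those 4 genes. Zic2 and Tfap2c fill most of the bars of combined and SS18-SSX tumours, and Zic1 and Tfap2e those of Snf5-null Myf5Cre tumours.

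The comparison of combined with SS18-SSX tumours asked whether the genes differ between tumours that all carry the fusion, with and without Smarcb1 loss. Zic2, Zic5, Tfap2b and Tfap2e fell in combined tumours, and 0 of the 8 genes rose (edgeR quasi-likelihood test, Benjamini-Hochberg adjusted p below 0.05). Among all 18929 tested genes 45% were called in either direction and 21.9% were lower, and the 4 calls here include the pair Zic2 and Zic5, which moved together. Zic2 fell by 2.68 ± 0.77 on the log2 scale (SE, adjusted p = 0.00898), and the 8 combined libraries (4.21 to 71.3 CPM) did not overlap the 6 SS18-SSX libraries (91.2 to 492.7 CPM). Zic5 fell by 2.36 ± 0.76 (adjusted p = 0.0171), also with no overlap (4.27% of all genes were lower with no overlap), at 1.43 to 22.6 CPM in combined against 24.3 to 131 CPM in SS18-SSX tumours, but without SS18-SSX Myf5Cre N428 the call was lost (fell by 2.0, adjusted p = 0.0551). Tfap2b fell by 4.04 ± 0.95 (adjusted p = 0.00275), and 2 combined libraries, 78774 and 78777, overlapped SS18-SSX N460. The Tfap2e call (fell by 3.97 ± 1.17, adjusted p = 0.0144) rested on 11 counts in 6 SS18-SSX libraries against 0 in 8 combined libraries, and without SS18-SSX library A it was lost (fell by 1.91, adjusted p = 1). Its fitted fold change depends on how counts of 0 are handled.

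The other 4 genes did not pass the test. Tfap2c differed by 0.34 ± 0.80 (SE, adjusted p = 0.746), Zic1 by 0.65 ± 1.57 (adjusted p = 0.753), Zic4 by 0.84 ± 1.46 (adjusted p = 0.657) and Tfap2a by -0.73 ± 0.59 (adjusted p = 0.315). A p above the threshold does not show that their levels were alike. Tfap2a was called without combined TATCre 78777 (fell by 1.39, adjusted p = 0.042). The number series differs between the 2 genotypes. Their Cre labels differ as well, since TATCre occurs in combined tumours alone and libraries with no Cre stated in SS18-SSX tumours alone. The part of the series and of Cre in these differences cannot be told apart from that of Smarcb1. Between the 2 SS18-SSX groups, which also differ in number series, 0 of the 8 genes were called (2.11% of all genes), 0 at an unadjusted p below 0.05 with edgeR, and 0 with DESeq2.

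**Figure D5:**
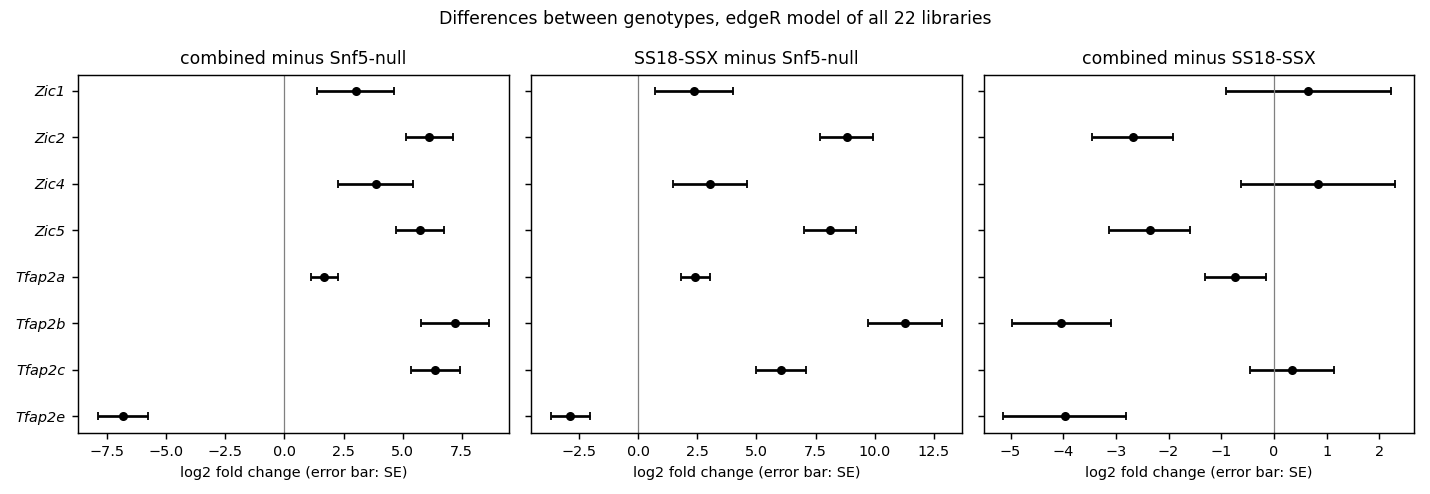
Fitted log2 fold changes with their SE from the model of all 22 libraries, 1 row per gene, for combined minus Snf5-null, SS18-SSX minus Snf5-null and combined minus SS18-SSX tumours. The first 2 panels are the contrasts by which the genes were chosen and share the Snf5-null libraries, and in the third Zic2, Zic5, Tfap2b and Tfap2e lie left of 0 by more than 3 SE. There the Tfap2e value rests on 11 counts in SS18-SSX libraries against 0 in combined libraries.

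Within Snf5-null tumours, Myf5Cre was set against TATCre to ask whether the genes differ with the source of Cre. Tfap2e stood at 4.88 to 5.59 CPM in 3 Myf5Cre libraries and at 0.0546 to 0.195 CPM in 5 TATCre libraries, with no overlap. It passed the low-count filter through those 3 Myf5Cre libraries, so no test is given for it here. Of the other 7 genes, 0 were called by edgeR (4.97% of all genes). Among them Tfap2b held 0 counts in the Myf5Cre libraries and 6 in the TATCre libraries. It passed the filter through tumours with the fusion, so its lack of a call here says little. Tfap2c (-3.79 ± 1.45 SE, adjusted p = 0.138), Zic2 (-3.17 ± 1.45, adjusted p = 0.223), Zic5 (-3.41 ± 1.60, adjusted p = 0.237) and Tfap2a (1.74 ± 0.80, adjusted p = 0.227) had an unadjusted p below 0.05 but failed the adjustment. DESeq2 called 1 of the 7, Tfap2c (-3.83, adjusted p = 0.015). The TATCre libraries N1 and N49 held most of the Tfap2c counts of this genotype, 125 and 213 of 365.

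Within combined tumours, 0 of the 8 genes were called between Myf5Cre and TATCre by edgeR (1.82% of all genes), 0 at an unadjusted p below 0.05, and 0 by DESeq2. The differences ran from -1.70 ± 1.2 (SE) for Tfap2b to 1.18 ± 1.89 for Zic4, and for Zic2 the difference was 0.11 ± 0.99. Tfap2e had no count in either group, so it could not be called here. Whether the difference between combined and Snf5-null tumours depended on the Cre label was tested as an interaction, in which 0 of the 8 genes were called by edgeR (2.42% of all genes), 0 at an unadjusted p below 0.05, and 0 by DESeq2. The nearest were Tfap2c (3.29 ± 1.75, adjusted p = 0.335) and Zic2 (3.27 ± 1.75, adjusted p = 0.34). For Tfap2e the term could not be estimated, so this gene could not be called. Zic2 gave a combined minus Snf5-null log2 fold change of 7.62 in Myf5Cre libraries alone and 4.41 in TATCre libraries alone, values that were not shown to differ.

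The genes most like each member over the 22 libraries were named by the Pearson r of log2 CPM. Beside its paired neighbour, Zic2 was most like 2610035F20Rik (r = 0.955) and Sall1, a zinc finger factor (0.954), and Zic5 was most like 2610035F20Rik (0.965) and Slc30a3, a zinc transporter (0.949). Zic1 was next most like Gm37040 (0.868) and Gm45768 (0.814), and Zic4 like Gm37040 (0.914) and Gm37457 (0.835). Genes like Tfap2b included Gad2, an enzyme of GABA synthesis (0.958), and Slc23a4 (0.928). Tfap2c stood closest to Ppp1r1b, a phosphatase inhibitor (0.968), Scube3 (0.964) and Sp5, a factor induced by Wnt signals (0.958). Tfap2a had no gene as close, with Camk1g at 0.881, Thsd4 at 0.868 and the semaphorin receptor gene Plxnb1 at 0.864. Tfap2e was most like Gm43287 (0.96), the adhesion gene Dscam (0.948) and the enamel gene Amtn (0.944). Among the members themselves, Zic2 and Tfap2c reached r = 0.899, Zic5 and Tfap2c 0.889, and Tfap2b and Tfap2c 0.642. Tfap2b reached 0.825 with Zic5 and 0.804 with Zic2, while Tfap2e and Tfap2c stood at -0.593. The members were chosen by their difference between tumours with and without the fusion, so r between them follows in part from that choice.

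Of 13 tested Hedgehog and GLI family genes, 5 rose and 0 fell in combined against Snf5-null tumours (edgeR, adjusted p below 0.05), among them Hhip (3.51 ± 0.63 SE, log2), Gli2 (3.25 ± 0.47) and Ptch1 (2.7 ± 0.34), an inhibitor, an effector and the receptor of the pathway. The median of the list was 0.54, against 0.235 over all genes, and 11 rose in SS18-SSX against Snf5-null tumours (25.9% of all genes higher, 22.3% lower), while 5 fell and 0 rose in combined against SS18-SSX tumours (21.9% of all genes lower, 23.1% higher). Of 9 cofactors and inhibitors of AP-2 proteins, 2 rose (Cited1, 3.61 ± 0.80, and Kctd1, 2.17 ± 0.51) and Cited2 fell by 1.81 ± 0.38, with a median of 0.2. Of 9 genes known as AP-2 targets in other tissues, Erbb3 rose (2.97 ± 0.67) and 3 fell, Ret by 3.24 ± 0.53, Esr1 by 2.53 ± 0.92 and Cdkn1a by 0.84 ± 0.28, with a median of -0.92. The called targets thus moved in both directions, and the activity of AP-2 proteins was not tested. Of 16 tested factors of the neural plate border and neural crest, 9 rose and 4 fell, with a median of 2.73, and Msx1 (5.73 ± 0.69), Gbx2 (5.41 ± 0.74) and Dlx6 (5.01 ± 1.29) rose most. These lists were read by counts alone, with 29.1% of all genes higher and 20.5% lower in combined against Snf5-null tumours. Which direction was the more frequent over all genes depended on the setting. Higher and lower genes numbered 5509 and 3874, 4486 and 4272 with RLE scaling, 3753 and 4381 with no low-count filter, and 3665 and 3848 with genotype alone, and leaving out single libraries turned the split as well (3262 and 4037 without Snf5-null Myf5Cre N31).

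Markers of other cell types that express ZIC or AP-2 genes are given for the same comparison. Of 10 simple epithelium markers 5 rose and 1 fell, Esrp1 by 7.21 ± 1.49, Cldn3 by 3.98 ± 1.03 and Gata3 by 3.24 ± 0.93 being the largest rises, and their summed level ran from 3.81 to 142 CPM in combined, 46.3 to 159 CPM in SS18-SSX and 6.88 to 23.3 CPM in Snf5-null tumours. The sum was lowest in combined N49 (3.81 CPM) and highest in 78777 (142 CPM), the libraries with the lowest and highest Tfap2c among combined tumours. Between these ends the order differed, since 78774 had more Tfap2c than N1 but a lower sum (10.9 against 111 CPM). The part of epithelial cells in the Tfap2c level was not tested. Of 8 tested keratinocyte markers 2 rose (Lor, 5.21 ± 1.36, and Krt15, 4.47 ± 1.40) and Col17a1 fell by 2.62 ± 0.77, with sums of 3.3 to 27.7 CPM in combined, where Ivl was at 0, 2.78 to 11.8 CPM in SS18-SSX and 4.58 to 358 CPM in Snf5-null tumours, the last mostly Dsg3.

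Of 2 tested melanocyte markers Mitf fell by 2.93 ± 0.27 and Pmel rose by 1.09 ± 0.35, and the sums were 4.3 to 11.6 CPM in combined, 14.9 to 34.2 CPM in SS18-SSX and 18.2 to 42.8 CPM in Snf5-null tumours. Dct was at 0 in all combined libraries, and Tyr, Tyrp1 and Mlana were at 0 in all SS18-SSX libraries. Meningeal fibroblast markers, a cell type rich in ZIC transcripts, summed to at most 3 CPM in combined, 3.28 CPM in SS18-SSX and 6.88 CPM in Snf5-null tumours, and 0 of 2 tested were called. Of 6 tested neuron markers 2 rose and 2 fell, with Rbfox3 up by 5.16 ± 0.81 and Snap25 and Map2 lower (-5.74 ± 0.92 and -2.26 ± 0.74), and sums of 33.5 to 200 CPM in combined, 71.5 to 272 CPM in SS18-SSX and 105 to 318 CPM in Snf5-null tumours. All 8 leucocyte markers fell (Itgam -5.88 ± 0.55, Cd3e -5.73 ± 1.15, Csf1r -5.03 ± 0.50), with sums of 22 to 213 CPM in combined, 33.9 to 240 CPM in SS18-SSX and 587 to 2530 CPM in Snf5-null tumours. Of 7 mature skeletal muscle markers 4 fell, led by Pvalb (-5.21 ± 1.5), Ckm (-4.74 ± 1.60) and Acta1 (-3.92 ± 1.36), and sums ran from 152 to 1430 CPM in combined, 1.98 to 6620 CPM in SS18-SSX and 80.6 to 15600 CPM in Snf5-null tumours. The part of these cell types in the levels of the 8 genes was not tested.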

How the data were processed

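RNA from 22 tumours was extracted with the RNeasy Mini kit and made into libraries with the TruSeq Stranded mRNA kit, per the labels' protocols. The table the authors deposited holds raw counts (whole numbers) for 48440 Ensembl IDs. Symbols and positions of 48058 of them come from GENCODE M21 on GRCm38, the assembly of mm10. Tools and build in the submitters' processing notes are STAR 2.7.5a, RSEM, featureCounts, DESeq2, cutadapt and mm10, with no role given. No source used here says how the counting treated strand or reads that fit several genes.

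Analysis used edgeR 4.0.16 under R 4.3.3. The filterByExpr function, with a minimum count of 10 and a minimum total of 15, kept 18929 genes with 99.91% of the counts. After TMM scaling, the 22 libraries entered a single quasi-likelihood model with a term for each of the 6 groups, and the 2 groups of a genotype had equal weight. Genes were called at a Benjamini-Hochberg adjusted p below 0.05 over all kept genes, and SE is the log2 fold change over the root of F. Correlations used log2 CPM with a prior count of 2. Upper limits for counts of 0 take 3 counts over the group and cover counting error only. The scripts were tested on simulated counts. Total counts per library, 8642648 to 25177722, set the precision of low genes.

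The members and the 11 gene lists were chosen with earlier results of these data known. The text names every member with Tfap2d, the 3 genes with the highest r to each member (for Tfap2b 2, as 1 item is not reported here), up to 3 called genes with the largest change per list (Cdkn1a was added after its value was seen), and Smarcb1 and Ptprc as checks. Alternatives were RLE scaling, no low-count filter, DESeq2 1.42.0, genotype alone as the design, N43L and N43R summed, each Cre label alone, CPM by total counts, leaving out each library in turn, and, chosen after seeing the data, terms for the title tags N1, N2 and N49.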

Additional observations from a re-analysis of the deposited data

Results flagged for a closer look

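In 22 sets of a gene and a group of 4 or 5 libraries, 6 values stood far from the rest of their group by Dixon's criterion on CPM. Chance meets this criterion in about 1 of 20 sets when values follow a normal distribution. CPM near 0 beside high values are skewed, so that rate does not hold here, and the criterion was not run on log2 values. The 6 come from 3 libraries, each with both genes of a pair, so they are not independent. In combined TATCre 78780, Zic1 was at 183.2 CPM and Zic4 at 31.39 CPM, with the next libraries of that group at 3.797 and 1.811 CPM. In Snf5-null TATCre N1, Zic1 was at 24.7 CPM and Zic4 at 3.953 CPM, with the next at 0.1266 and 0.06331 CPM. In Snf5-null TATCre N49, Zic2 was at 7.598 CPM and Zic5 at 2.976 CPM, with the next at 1.046 and 0.4069 CPM. N49 of this group also had the highest summed level of keratinocyte markers, 358 CPM, of which 330 CPM were Dsg3, and the highest Tfap2c level among Snf5-null libraries, 13.5 CPM.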

How the results depend on the processing

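Of 1060 alternative values for 39 tested fold changes, 1000 kept their direction and their side of the threshold, 2 lost and 2 gained a call, and 56 changed sign, 0 of them called. The 1000 include the Tfap2e values for Cre in combined tumours and for the interaction. These were counted as unchanged in advance, since the gene had no count in combined tumours, and they say nothing about stability. Of 484 alternative values for the 17 described fold changes, 474 moved by less than the spread between replicates (1 SD), 10 moved further and 0 changed sign. The spread is each gene's own, so a gene that varies widely can move far within it. On leaving out libraries, combined minus Snf5-null ran from 0.59 to 6.42 for Zic1 and from 2.04 to 5.99 for Zic4, with 0 of these counted as moved. The calls of Zic2 and Tfap2b in combined minus SS18-SSX held under every alternative run. The calls lost or gained are those given in the results for Zic5, Tfap2e, Tfap2a and Tfap2c. Mean levels by total counts in place of TMM scaling stayed within 1 SD. The Tfap2e difference of combined and SS18-SSX tumours has no value with genotype alone, where the gene did not pass the filter. Replicate numbers are in accession order, but the title tags N1, N2 and N49 each occur in 2 genotypes. Deviations from the group means correlated at r = -0.181, -0.089 and -0.058 within these pairs, so the tags are not taken as pairing. A replicate block with a term for each of these tags, chosen after seeing the data, changed no call of the 8 genes and left 67 of 344 genes called for Cre in combined tumours. With this block, signs turned for uncalled differences of Zic1 (-1.26) and Zic4 (-1.27) in combined minus SS18-SSX, of Zic1 (-5.14) and Zic4 (-4.43) for Cre in combined tumours, of Zic4 (-7.94) and Tfap2b (-1.34) for the interaction, and of Zic1 (0.09), Zic4 (0.06) and Tfap2b (0.37) between the SS18-SSX groups.

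Counts of all genes called moved with the tool and with N43L and N43R summed. For Myf5Cre minus TATCre in Snf5-null tumours 940 genes were called, 2239 with DESeq2 and 559 with N43 summed, and 122 to 1959 on leaving out libraries, with 1 of 7 members called by DESeq2 and 0 on leaving out libraries. In combined tumours the same comparison called 344, 1473 with DESeq2, 206 with N43 summed and 55 to 611 on leaving out libraries. For the interaction 458 were called, 1505 with DESeq2, 259 with N43 summed and 60 to 1053 on leaving out libraries. Between the SS18-SSX groups 400 were called, 1363 with DESeq2, 115 with no low-count filter and 33 to 792 on leaving out libraries. In combined minus Snf5-null, TATCre libraries alone called 3419 genes, against 5509 higher and 3874 lower, with fewer libraries in the fit. Otherwise the cause was not tested.

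Signs that turned belonged to differences that failed the test. With N43 summed, Zic4 changed to -0.2 for Cre in Snf5-null tumours. Between the SS18-SSX groups Tfap2c (0.01) changed to -0.02 with RLE scaling, -0.01 with DESeq2 and -0.05 with N43 summed. Leaving out libraries gave these log2 ranges. For combined minus SS18-SSX they were -1.79 to 1.04 (Zic1), -1.02 to 1.44 (Zic4) and -0.13 to 0.58 (Tfap2c). For Cre in Snf5-null tumours they were -0.16 to 7.19 (Zic1) and -0.62 to 4.21 (Zic4). For Cre in combined tumours they were -1.38 to 5.01 (Zic1), -0.22 to 0.58 (Zic2), -0.29 to 4.97 (Zic4), -0.72 to 0.06 (Zic5) and -0.85 to 0.44 (Tfap2c). For the interaction they were -7.14 to 4.52 (Zic1), -3.03 to 4.88 (Zic4) and -1.7 to 0.12 (Tfap2a). Between the SS18-SSX groups they were -0.05 to 0.93 (Zic2), -1.16 to 0.42 (Tfap2b), -0.24 to 0.32 (Tfap2c) and -1.2 to 3.81 (Tfap2e).

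Of the described values, combined minus Snf5-null in Myf5Cre libraries alone gave 7.12 for Zic5 and -9.54 for Tfap2e, and TATCre libraries alone gave 4.14 for Zic5 and 4.67 for Tfap2c. DESeq2 gave -6.19 for Tfap2e. Without Snf5-null TATCre N49, Zic5 reached 7.13 for combined and 9.44 for SS18-SSX minus Snf5-null. The SS18-SSX libraries were the least even in depth, and levels under about 0.2 CPM rest on a few counts.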
